A study of Mus musculus with 18 samples.

Results

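DNA replication licensing was followed through a list of 10 genes set by name, with no threshold on a measured value: Mcm2, Mcm3, Mcm4, Mcm5, Mcm6, Mcm7, Cdc6, Cdt1, Pcna and Ccne1. They are 10 of the 34245 genes in the deposited expression table, and all 10 passed the filter on low values. RNA was sequenced from whole mouse embryos of the FVB strain at E11.5, a mid-gestation stage, in 3 groups of 3 embryos. Dnmt3b+/+ embryos were the wild type, embryos labelled Dnmt3b-/- carried a conventional null allele of the DNA methyltransferase gene Dnmt3b on both chromosomes, and Dnmt3bCI/CI embryos carried a catalytically inactive knock-in allele on both. Both mutations were constitutional and present in every cell, the embryos came from matings of heterozygous mice, and only embryos alive at collection were used. Litters are not given in the labels, so p-values measure the spread between these embryos. The question was whether S-phase genes differed between the genotypes together with the inhibitors of the cell cycle.

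Licensing is the step in G1 at which a replication origin is prepared to fire once. The origin recognition complex marks the DNA, Cdc6 and Cdt1 bring in the ring made of Mcm2 to Mcm7, and that ring becomes the core of the helicase that unwinds DNA in S phase. Ccne1 encodes cyclin E1, which activates Cdk2 at the G1/S transition, and Pcna encodes the sliding clamp that holds the polymerases on DNA. Genes of this kind are classical targets of the E2F factors, are transcribed in cycling cells and are low in cells that have left the cycle. An E11.5 embryo is a mixture of many dividing tissues and a growing share of differentiating cells.

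The regions before the RefSeq start sites of these genes are shown because they hold the letters by which E2F target genes are usually recognised. In the RefSeq promoter windows of the GRCm38 build, which run from 250 bases before the start to 50 after it, 9 of the 10 genes were found (Mcm4 was not matched). The 8-letter words TTTCCCGC, TTTGGCGC, TTTGCCGC and TTTCGCGC, searched on both strands and allowed to overlap, were present in 6 of these 9 genes (66.7%), namely Mcm3, Mcm5, Mcm6, Mcm7, Cdc6 and Cdt1. They were present in 2.6% of all 27025 genes with a window, and in 23 of 74 genes (31.1%) of the other replication and cell cycle lists described further on. CCAAT, searched on both strands, was present in 6 of 9 licensing genes (66.7%) and in 41.1% of all genes. Such a match describes letters in a window and is not evidence of a bound site. The stretches are written 5′ to 3′ on the strand of the gene and lie outside annotated exons, and capitals mark the E2F-type words, 2 of which can run together where they overlap. They are chr1:128359706-128359855 (minus strand) for Mcm6, chr8:75109316-75109407 (plus strand) for Mcm5 and chr11:98907982-98908060 (plus strand) for Cdc6. For Cdc6 the stretch lies before the RefSeq start but inside the gene as GENCODE draws it, which begins further upstream, at 98907801.
Mcm6: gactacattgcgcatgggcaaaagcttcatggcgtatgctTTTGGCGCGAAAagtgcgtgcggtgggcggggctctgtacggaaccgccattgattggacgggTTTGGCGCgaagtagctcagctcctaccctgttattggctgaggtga
Mcm5: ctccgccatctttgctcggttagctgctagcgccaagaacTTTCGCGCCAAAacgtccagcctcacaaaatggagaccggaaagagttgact
Cdc6: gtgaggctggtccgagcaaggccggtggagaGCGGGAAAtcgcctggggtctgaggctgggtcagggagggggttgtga

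Libraries held between 38451729 and 49808777 reads. The level of Dnmt3b was 2.25, 1.62 and 2.04 FPKM (fragments per kilobase of exon and per library size) in Dnmt3b+/+ embryos, 2.45, 3.12 and 3.33 FPKM in embryos labelled Dnmt3b-/-, and 2.06, 1.98 and 2.32 FPKM in Dnmt3bCI/CI embryos. The level was higher, not lower, in the embryos labelled Dnmt3b-/- (log2 fold change 0.57 ± 0.15 SE, adjusted p = 0.0248 in limma). The value counts reads over the whole gene, so a transcript of the exons that the null allele leaves would be counted, and it does not check the labels. Dnmt3b+/+ embryo 2 stood apart: Alb, which encodes albumin, was 0.103 FPKM there against 85.7 and 43.7 FPKM in the remaining wild-type embryos, and the fetal liver gene Afp was 0.119 FPKM against 93.3 and 52.0 FPKM. The erythroid factors Gata1 and Klf1 were also lowest there, at 0.115 and 0.446 FPKM. Neural, muscle, cartilage, blood and endothelial marker lists were detected in all 9 libraries. The main counts that compare with Dnmt3b+/+ are therefore also given without this embryo.

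The licensing genes were moderately higher in embryos labelled Dnmt3b-/- than in Dnmt3b+/+ embryos. Of the 10 genes 8 rose (adjusted p under 0.05 in limma on log2(FPKM + 0.1), Benjamini-Hochberg over 19397 genes), none fell, and the fold changes ran from 0.33 for Mcm6 to 0.68 for Cdc6 on the log2 scale. The background was 9.41% of all tested genes higher and 16.4% lower. None of the 10 genes reached a 2-fold difference, which 1.07% of all tested genes did in the higher direction. For 8 of the 10 genes every embryo labelled Dnmt3b-/- exceeded every wild-type embryo, a pattern that 15.1% of all tested genes had. The median difference on the log2 scale was 0.54 over the 10 genes and -0.07 over all tested genes. In Dnmt3bCI/CI embryos none of the 10 genes passed the test against Dnmt3b+/+, where the background was also near 0, at 0.129% of all tested genes higher and 0.0155% lower. In RNA from whole embryos, a change in the number of cycling cells and a change in the RNA of each such cell cannot be told apart.

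**Figure D1:**
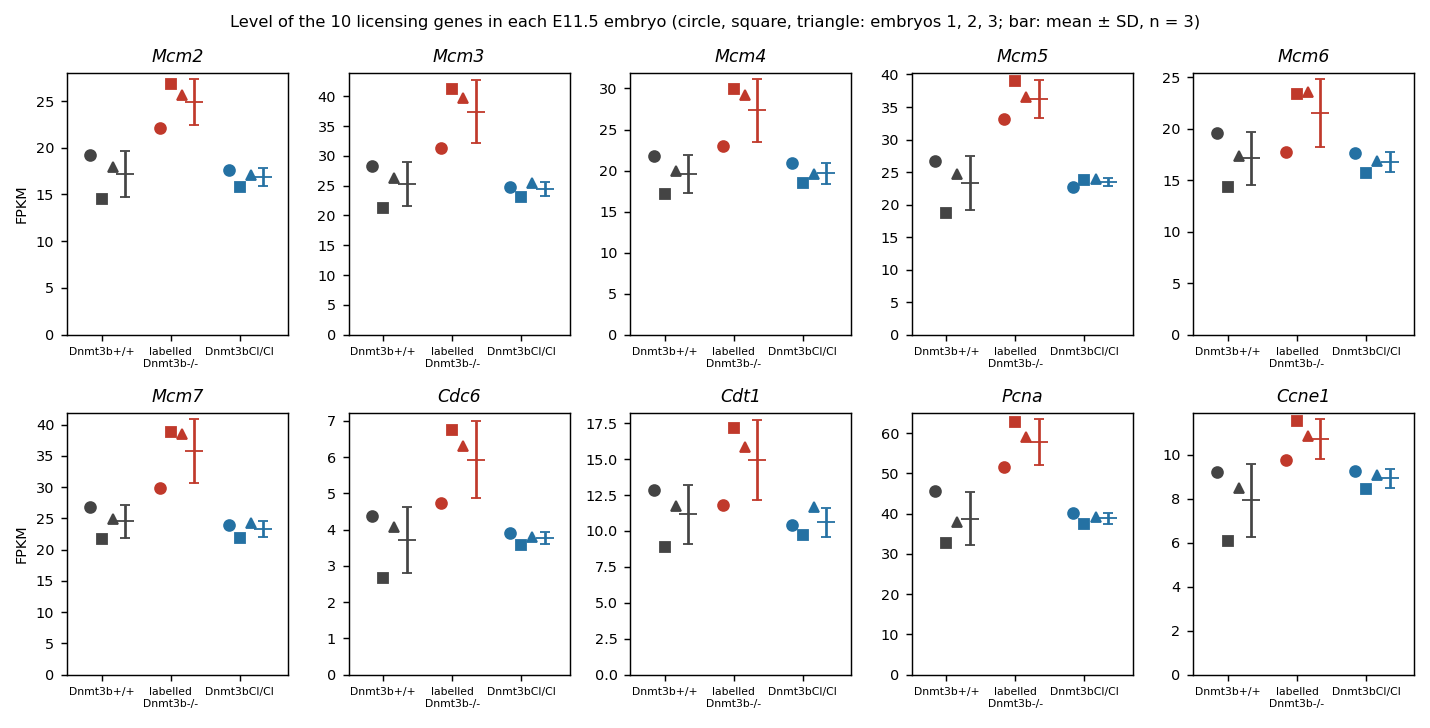
FPKM (y axis) of the 10 licensing genes in each embryo (circle, square and triangle for embryos 1, 2 and 3), with the mean and SD of each genotype beside the points (n = 3). The 3 embryos labelled Dnmt3b-/- exceed each Dnmt3b+/+ embryo in 8 of the 10 panels, and Dnmt3b+/+ embryo 2 is the lowest wild-type embryo in each panel.

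The 6 subunits of the helicase ring come first, with gene positions from GENCODE M21 on the GRCm38 build. Mcm2 (ENSMUSG00000002870, chromosome 6, 88883474 to 88898780, minus strand) was measured at 19.3, 14.5 and 17.95 FPKM in Dnmt3b+/+ embryos, 22.1, 26.8 and 25.7 FPKM in embryos labelled Dnmt3b-/-, and 17.7, 15.8 and 17.1 FPKM in Dnmt3bCI/CI embryos. The embryos labelled Dnmt3b-/- all lay above the other 6, and the difference from Dnmt3b+/+ was 0.53 ± 0.11 SE on the log2 scale (adjusted p = 0.0122, limma). These levels rest on 4583 to 7932 reads per embryo.

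Mcm3 (ENSMUSG00000041859, chromosome 1, 20802968 to 20820312, minus strand) stood at 28.4, 21.2 and 26.3 FPKM in Dnmt3b+/+ embryos, 31.3, 41.2 and 39.8 FPKM in embryos labelled Dnmt3b-/-, and 24.8, 23.1 and 25.4 FPKM in Dnmt3bCI/CI embryos. The first and second of these groups did not overlap, although embryo 1 labelled Dnmt3b-/- was close to the highest wild-type embryo. The difference was 0.56 ± 0.13 SE (log2, adjusted p = 0.0164, limma). Mcm4 (ENSMUSG00000022673, chromosome 16, 15623897 to 15637400, minus strand) gave 21.7, 17.2 and 20.0 FPKM in Dnmt3b+/+ embryos, 22.9, 29.9 and 29.2 FPKM in embryos labelled Dnmt3b-/-, and 20.9, 18.4 and 19.6 FPKM in Dnmt3bCI/CI embryos. The lowest embryo labelled Dnmt3b-/- was again only a little above the highest Dnmt3b+/+ embryo, and the difference was 0.47 ± 0.12 SE (log2, adjusted p = 0.0226, limma).

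Mcm5 (ENSMUSG00000005410, chromosome 8, 75109569 to 75128439, plus strand), whose promoter stretch is printed above, had the numerically largest difference within the ring. Its level was 26.8, 18.7 and 24.7 FPKM in Dnmt3b+/+ embryos, 33.1, 39.0 and 36.6 FPKM in embryos labelled Dnmt3b-/-, and 22.7, 23.7 and 23.9 FPKM in Dnmt3bCI/CI embryos. The gap between the lowest embryo labelled Dnmt3b-/- and the highest of the other 6 was clear, and the difference from Dnmt3b+/+ was 0.64 ± 0.12 SE (log2, adjusted p = 0.00851, limma). Mcm7 (ENSMUSG00000029730, chromosome 5, 138164583 to 138172422, minus strand) was at 26.8, 21.7 and 24.9 FPKM in Dnmt3b+/+ embryos, 29.9, 38.9 and 38.6 FPKM in embryos labelled Dnmt3b-/-, and 24.0, 21.9 and 24.2 FPKM in Dnmt3bCI/CI embryos. All embryos labelled Dnmt3b-/- were above the rest, with a difference of 0.54 ± 0.12 SE (log2, adjusted p = 0.0125, limma). Of the exon bases of Mcm7, 12.6% are shared with Cops6, Ap4m1, Mir25 or Mir93, and the strandedness of the counting is not given in the sources used here, so a small part of its reads could belong to these neighbours.

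Mcm6 (ENSMUSG00000026355, chromosome 1, 128331590 to 128359664, minus strand) was the subunit that did not pass the test. Its level was 19.6, 14.4 and 17.4 FPKM in Dnmt3b+/+ embryos, 17.8, 23.4 and 23.6 FPKM in embryos labelled Dnmt3b-/-, and 17.6, 15.8 and 16.9 FPKM in Dnmt3bCI/CI embryos. Embryo 1 labelled Dnmt3b-/- lay inside the wild-type range, and the difference was 0.33 ± 0.14 SE (log2, adjusted p = 0.106, limma). Seen as a share of the summed FPKM of Mcm2 to Mcm7, Mcm6 took 13.7%, 13.4% and 13.3% in Dnmt3b+/+ embryos, 11.3%, 11.8% and 12.2% in embryos labelled Dnmt3b-/-, and 13.8%, 13.3% and 13.3% in Dnmt3bCI/CI embryos. The shares in embryos labelled Dnmt3b-/- were below those of all 6 other embryos. This is a description without a test, and Mcm6 was singled out from the shares of all subunits. Against either group alone, the exact permutation test of 3 against 3 embryos cannot give a two-sided p under 0.1. Mcm4 also lay below the other 6, by less, at 14.6%, 15.0% and 15.1% against 15.2% to 15.9% in Dnmt3b+/+ embryos and 15.4% to 16.4% in Dnmt3bCI/CI embryos. Mcm5 took 18.9% to 21.1% of the sum in embryos labelled Dnmt3b-/- and 17.4% to 18.8% in Dnmt3b+/+ embryos, but Dnmt3bCI/CI embryos, at 17.8% to 20.0%, overlapped with both.

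**Figure D2:**
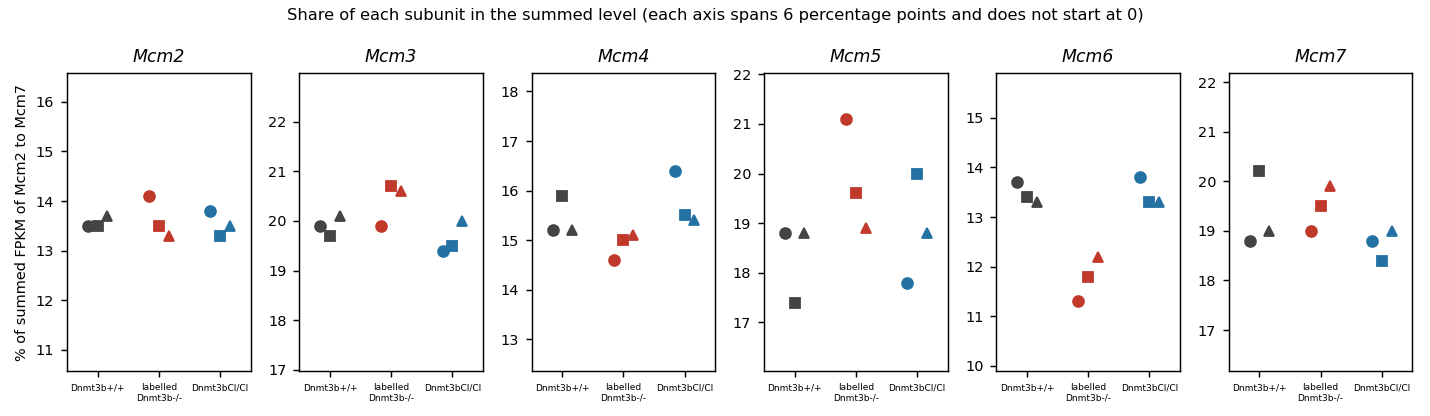
Share (%, y axis) of each subunit in the summed FPKM of Mcm2 to Mcm7 in each embryo, by genotype (circle, square and triangle for embryos 1, 2 and 3). The Mcm6 share is 11.3% to 12.2% in embryos labelled Dnmt3b-/- and 13.3% to 13.8% in the other 6, and each axis spans 6 percentage points rather than starting at 0.

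Of the pair of factors that load the ring, Cdc6 rose and Cdt1 did not pass the test. Cdc6 (ENSMUSG00000017499, chromosome 11, 98907801 to 98923940, plus strand), an ATPase that works with the origin recognition complex, was measured at 4.39, 2.67 and 4.08 FPKM in Dnmt3b+/+ embryos, 4.73, 6.76 and 6.31 FPKM in embryos labelled Dnmt3b-/-, and 3.91, 3.58 and 3.81 FPKM in Dnmt3bCI/CI embryos. It had the largest difference of the 10 genes and also the largest standard error, 0.68 ± 0.19 SE (log2, adjusted p = 0.0323, limma). Cdt1 (ENSMUSG00000006585, chromosome 8, 122568015 to 122573554, plus strand), the partner that escorts the ring to the origin, gave 12.8, 8.86 and 11.8 FPKM in Dnmt3b+/+ embryos, 11.8, 17.2 and 15.9 FPKM in embryos labelled Dnmt3b-/-, and 10.4, 9.69 and 11.7 FPKM in Dnmt3bCI/CI embryos. Embryo 1 labelled Dnmt3b-/- lay within the wild-type range, and the difference was 0.42 ± 0.17 SE (log2, adjusted p = 0.0994, limma).

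Pcna (ENSMUSG00000027342, chromosome 2, 132249162 to 132253314, minus strand) was the most highly expressed of the 10 genes. Its level was 45.6, 32.6 and 38.0 FPKM in Dnmt3b+/+ embryos, 51.6, 62.7 and 59.0 FPKM in embryos labelled Dnmt3b-/-, and 40.04, 37.3 and 39.0 FPKM in Dnmt3bCI/CI embryos. The embryos labelled Dnmt3b-/- lay above all others, with a difference from Dnmt3b+/+ of 0.58 ± 0.12 SE (log2, adjusted p = 0.0106, limma). Ccne1 (ENSMUSG00000002068, chromosome 7, 38097984 to 38107534, minus strand) was at 9.21, 6.06 and 8.51 FPKM in Dnmt3b+/+ embryos, 9.76, 11.53 and 10.9 FPKM in embryos labelled Dnmt3b-/-, and 9.27, 8.45 and 9.07 FPKM in Dnmt3bCI/CI embryos. The difference of 0.45 ± 0.14 SE (log2, adjusted p = 0.0487, limma) was just inside the threshold, and the lowest embryo labelled Dnmt3b-/- was close to the highest of each other group.

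Ordered by mean FPKM, which is corrected for gene length, over the 9 embryos, the genes ran from Pcna (45.1) through Mcm3 (29.1), Mcm7 (27.9), Mcm5 (27.7), Mcm4 (22.2), Mcm2 (19.7), Mcm6 (18.5), Cdt1 (12.2) and Ccne1 (9.19) to Cdc6 (4.47). Neighbours in this order kept their places in all 9 embryos except for 3 pairs. Mcm3 was above Mcm7 in 8 embryos, Mcm7 above Mcm5 in 6, and Mcm2 above Mcm6 in 8.

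The genes followed a largely common order of embryos in Dnmt3b+/+ and in the group labelled Dnmt3b-/-, and less so in Dnmt3bCI/CI. Dnmt3b+/+ embryo 1 was the highest and embryo 2 the lowest of its group for all 10 genes. Embryo 1 labelled Dnmt3b-/- was the lowest of its group for all 10 genes, and embryo 2 the highest for 9. Dnmt3bCI/CI embryo 2 was the lowest of its group for 9 genes, but embryo 1 was the highest for 6 and embryo 3 for 4. The summed FPKM of Mcm2 to Mcm7 was 142.6, 107.6 and 131.2 in Dnmt3b+/+ embryos, 157.2, 199.2 and 193.3 in embryos labelled Dnmt3b-/-, and 127.7, 118.6 and 127.1 in Dnmt3bCI/CI embryos. The lowest sum of all 9 thus came from the embryo with almost no liver RNA.

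Without Dnmt3b+/+ embryo 2, the median difference of the 10 genes was 0.43 on the log2 scale, and 5 of the 10 rose against a background of 5.98% of all tested genes. These were Mcm2, Mcm3, Mcm5, Mcm7 and Pcna, with adjusted p of 0.0238, 0.0398, 0.00824, 0.0364 and 0.0239 in limma. Mcm4 (0.38 ± 0.12 SE, adjusted p = 0.0632), Cdc6 (0.46 ± 0.14 SE, adjusted p = 0.0584) and Ccne1 (0.27 ± 0.08 SE, adjusted p = 0.0629) no longer passed. Embryo 1 labelled Dnmt3b-/- acted the other way, and without it all 10 genes rose, against 12.2% of all tested genes. Without embryo 2 labelled Dnmt3b-/-, 2 of the 10 passed (4.36% of all tested genes were higher), and without embryo 3 it was 4 (5.83%). Without Dnmt3b+/+ embryo 3, 5 passed (5.72%). Fitted on these 2 genotypes alone, 4 of the 10 passed (5.21%). The main fit shares its estimate of the spread with the Dnmt3bCI/CI embryos, which had the smallest SD for each of the 10 genes. For Mcm3 the SD was 3.7 FPKM in Dnmt3b+/+ embryos, 5.4 FPKM in embryos labelled Dnmt3b-/- and 1.2 FPKM in Dnmt3bCI/CI embryos. The estimate was above 0 for each of the 10 genes in all of these fits.

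**Figure D3:**
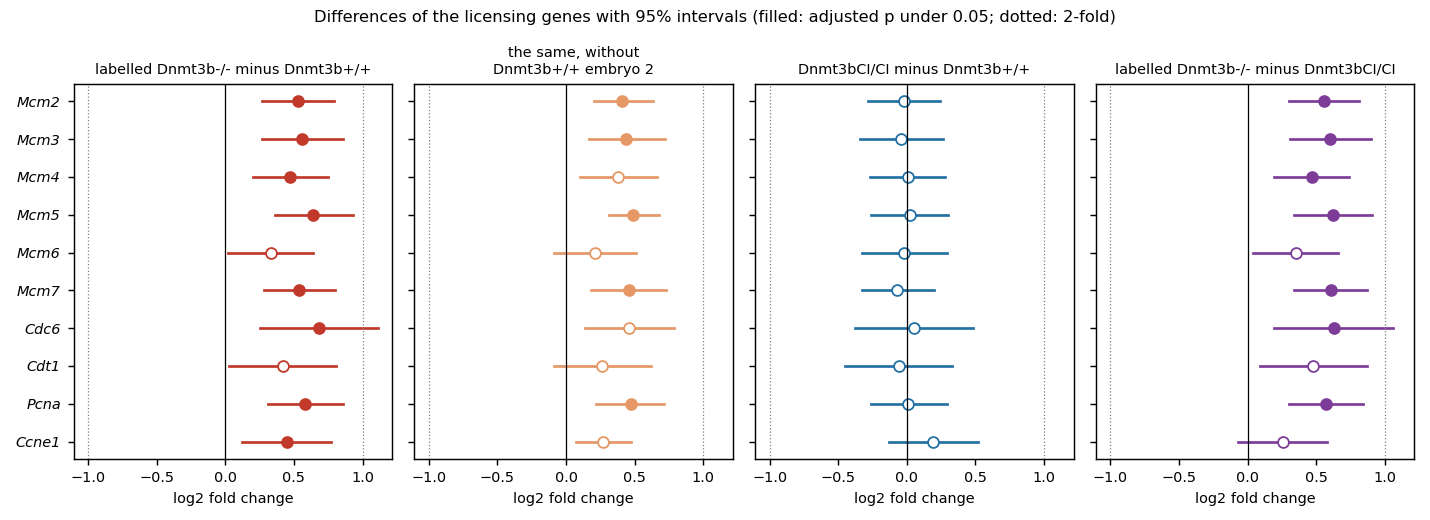
Log2 fold change (x axis) of each licensing gene with its 95% interval in 4 comparisons, filled where the adjusted p was under 0.05 and with dotted lines at 2-fold. All 10 estimates are above 0 for embryos labelled Dnmt3b-/- against either other genotype, 8 of 10 pass against Dnmt3b+/+ and 5 of 10 do without Dnmt3b+/+ embryo 2, and the Dnmt3bCI/CI estimates lie around 0.

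In Dnmt3bCI/CI embryos the licensing genes lay inside or around the wild-type range. The fold changes from Dnmt3b+/+ ran from -0.07 for Mcm7 to 0.19 for Ccne1 on the log2 scale, with a median of -0.01, and the ranges of embryos overlapped for all 10 genes, where 7.53% of all tested genes lay wholly above the wild type and 5.65% wholly below it. None passed the adjusted threshold in limma, none had an unadjusted p under 0.05 (2.7% of all tested genes did in the higher and 2.55% in the lower direction), and none passed with voom on recovered reads. The background was 0.129% of all tested genes higher and 0.0155% lower. The intervals bound what could be seen: for Mcm2 the 95% interval of the difference was -0.28 to 0.24, for Pcna -0.26 to 0.29 and for Cdc6 -0.38 to 0.48 on the log2 scale. Without Dnmt3b+/+ embryo 2 the median was -0.14, and again none of the 10 genes passed (0.124% of all tested genes were higher).

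The difference between the 2 mutant genotypes was tested directly, in a comparison that does not involve the Dnmt3b+/+ embryos other than through the shared estimate of the spread. Embryos labelled Dnmt3b-/- lay above all 3 Dnmt3bCI/CI embryos for all 10 genes, a pattern that 16.7% of all tested genes had. Of the 10 genes 7 passed the test as higher, against 9.7% of all tested genes, and none as lower, against 18.2%, with a median log2 difference of 0.56. Mcm5 differed by 0.62 (adjusted p = 0.00823), Mcm7 by 0.61 (adjusted p = 0.00718) and Pcna by 0.57 (adjusted p = 0.0103) in limma. Mcm6 (0.35, adjusted p = 0.0846), Cdt1 (0.48, adjusted p = 0.0643) and Ccne1 (0.26, adjusted p = 0.203) did not pass. For Ccne1 the 95% interval was -0.07 to 0.58, which holds both an equal level and the median difference of the 10 genes. Both comparisons with embryos labelled Dnmt3b-/- share those 3 libraries. The fit without Dnmt3b+/+ embryo 2, which changes only the estimate of the spread here, gave 9 of 10 genes, against 10.7% of all tested genes.

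Other genes of replication and the cell cycle, taken from 10 lists of 93 genes that do not hold the licensing genes or the inhibitors, were measured beside them. In embryos labelled Dnmt3b-/-, 51 of the 92 tested genes (55.4%) rose and 1 fell relative to Dnmt3b+/+, beside the background of 9.41% and 16.4%, with a median log2 fold change of 0.38. Without Dnmt3b+/+ embryo 2 it was 32 genes higher and 1 lower, beside 5.98% of all tested genes higher, and without embryo 2 labelled Dnmt3b-/- it was 15 higher, beside 4.36%. Without embryo 3 so labelled it was 21, beside 5.83%, and without embryo 1 it was 64, beside 12.2%. The counts of single lists below stand beside the same shares. For single lists the counts without embryo 2 or 3 labelled Dnmt3b-/- are not given. In Dnmt3bCI/CI embryos none of the 92 passed in either direction, beside a background of 0.129% higher and 0.0155% lower, and the median was -0.05.

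Upstream of the ring, none of the 6 genes of the origin recognition complex passed, beside 9.41% of all tested genes higher and 16.4% lower. With 6 genes, a count of none is close to those shares. None passed without Dnmt3b+/+ embryo 2 (5.98% of all tested genes higher), and 3 did without embryo 1 labelled Dnmt3b-/- (12.2%). The median was 0.23. Orc1, the subunit most tied to the cell cycle, was at 2.23, 1.22 and 1.89 FPKM in Dnmt3b+/+ embryos and 1.95, 3.24 and 3.21 FPKM in embryos labelled Dnmt3b-/- (0.63 ± 0.25 SE, adjusted p = 0.0924, limma). Its groups overlapped, as did those of the other 5. Of the 7 genes that control licensing 3 rose (6 without embryo 1 labelled Dnmt3b-/-, where 12.2% of all tested genes were higher), among them Gmnn, which encodes geminin, the inhibitor that binds Cdt1 after origins have fired. Gmnn was at 9.71, 6.74 and 8.67 FPKM in Dnmt3b+/+ embryos, 10.9, 14.9 and 15.1 FPKM in embryos labelled Dnmt3b-/- and 8.94, 7.76 and 8.57 FPKM in Dnmt3bCI/CI embryos (0.70 ± 0.16 SE against Dnmt3b+/+, adjusted p = 0.0152). Ddb1 (0.24) and Skp2 (0.33), both parts of ubiquitin ligases that lead to the destruction of Cdt1 protein, made up the rest, and without Dnmt3b+/+ embryo 2 Ddb1 no longer passed (adjusted p = 0.0716, limma).

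Downstream of the ring, 11 of the 15 genes of helicase activation rose, with a median of 0.47, and 4 did without Dnmt3b+/+ embryo 2. They included Dbf4, the activating subunit of the Cdc7 kinase (0.68 ± 0.14 SE, adjusted p = 0.0109), Recql4 (0.67 ± 0.11 SE, adjusted p = 0.00438) and the fork protection gene Timeless (0.44 ± 0.10 SE, adjusted p = 0.0139). Of 12 genes for polymerases and primase 4 rose, and the 3 with the smallest p were Pole3, Pole and Pola2, at 0.31, 0.49 and 0.42. Of 12 genes for the clamp loader, single-strand binding, flap removal, ligation and chromatin assembly 10 rose, with Rpa3 at 0.44, Rpa2 at 0.53 and the chromatin assembly gene Chaf1a at 0.63. Without Dnmt3b+/+ embryo 2 these counts were 3 and 9. Of 5 genes for nucleotide supply 2 rose, both for ribonucleotide reductase, of which Rrm1 did not pass without that embryo (adjusted p = 0.0769, limma), while 4 of the 5 rose without embryo 1 labelled Dnmt3b-/-, where 12.2% of all tested genes were higher. Its small subunit Rrm2 was at 30.5, 19.3 and 26.5 FPKM in Dnmt3b+/+ embryos, 37.5, 54.7 and 55.6 FPKM in embryos labelled Dnmt3b-/- and 23.9, 22.1 and 24.6 FPKM in Dnmt3bCI/CI embryos. It was the single gene of these lists past 2-fold in any of the 3 comparisons, at 1.04 on the log2 scale between the 2 mutant genotypes (adjusted p = 0.00599, limma). Outside the ring, the MCM relative Mcm8 rose (0.72 ± 0.16 SE, adjusted p = 0.0149), Mcm9 did not pass (0.14, adjusted p = 0.215), and Mcmdc2 was too low to be tested.

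Among the regulators of the G1/S transition, 4 of the 12 E2F and RB genes rose and 1 fell. E2f5, which encodes an E2F of the repressor class, was at 5.996, 5.599 and 5.77 FPKM in Dnmt3b+/+ embryos and 8.98, 8.99 and 9.94 FPKM in embryos labelled Dnmt3b-/- (0.67 ± 0.06 SE, adjusted p = 0.000418, limma). The gene that fell was Rbl2, which encodes the pocket protein p130 found in resting cells (1.90, 1.98 and 1.86 FPKM against 1.49, 1.24 and 1.33 FPKM, -0.48 ± 0.09 SE, adjusted p = 0.00728). Tfdp1, a dimer partner of E2F, rose by 0.34. Without Dnmt3b+/+ embryo 2, 1 gene of this list was higher (E2f5) and 1 lower (Rbl2), and Tfdp1 had an adjusted p of 0.0819 in limma. Of the 9 cyclin and kinase genes 5 rose. Ccnd1, which encodes cyclin D1, was at 29.3, 26.9 and 26.5 FPKM in Dnmt3b+/+ embryos, 46.5, 48.0 and 52.5 FPKM in embryos labelled Dnmt3b-/- and 27.4, 28.7 and 28.0 FPKM in Dnmt3bCI/CI embryos (0.83 ± 0.06 SE against Dnmt3b+/+, adjusted p = 0.000181). Cdk4 (0.38) and the phosphatase gene Cdc25a (0.38) rose as well, and 4 of the 9 passed without Dnmt3b+/+ embryo 2.

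Genes of G2 and mitosis rose too. Of 12, 11 rose in embryos labelled Dnmt3b-/-, with a median of 0.63, and those with the smallest p were Cdc20 (0.72), Plk1 (0.72) and Top2a (0.74), while 7 rose without Dnmt3b+/+ embryo 2. Mki67, a marker of cycling cells and the gene of this list that was not called, was at 27.5, 15.4 and 22.1 FPKM in Dnmt3b+/+ embryos and 21.2, 26.3 and 28.7 FPKM in embryos labelled Dnmt3b-/- (0.26 ± 0.19 SE, adjusted p = 0.359, limma); it is named because it was the exception, after its values were seen. The ratio of the summed Mcm2 to Mcm7 level to the summed level of the 12 genes was 0.677, 0.737 and 0.682 in Dnmt3b+/+ embryos, 0.650, 0.660 and 0.643 in embryos labelled Dnmt3b-/- and 0.720, 0.740 and 0.724 in Dnmt3bCI/CI embryos. The ratio was lower in each embryo labelled Dnmt3b-/- than in all others.

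**Figure D4:**
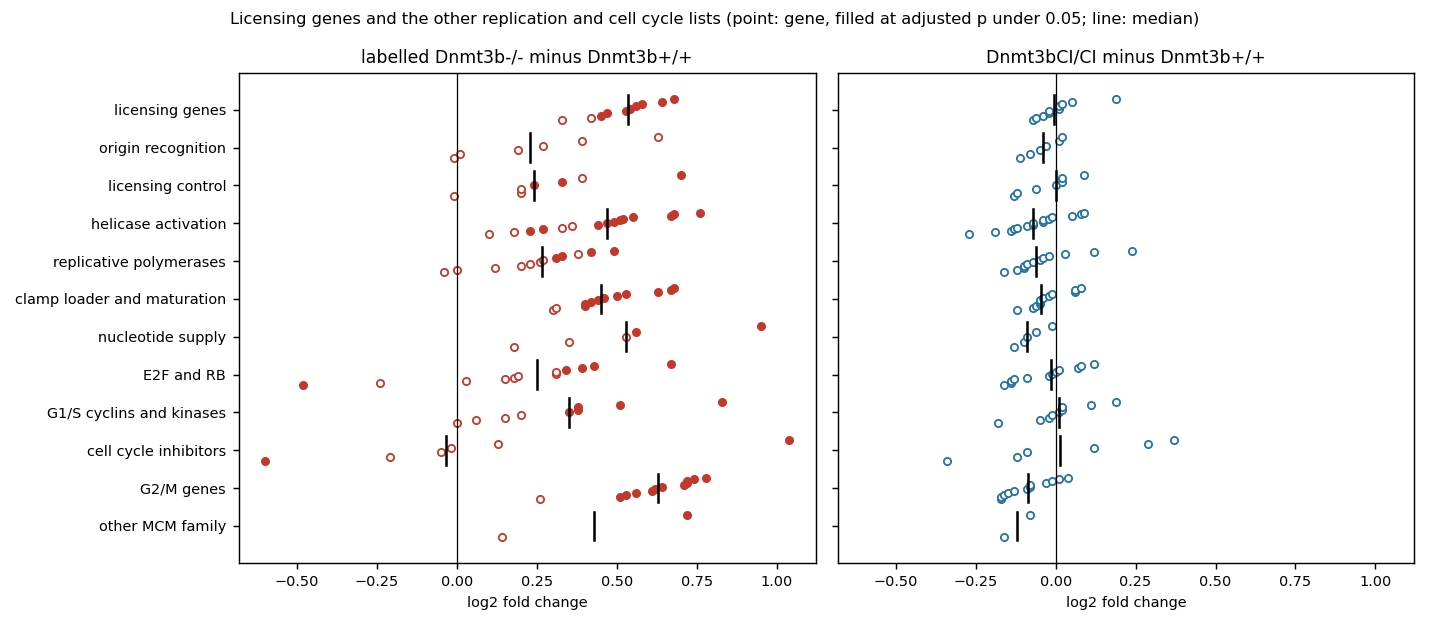
Log2 fold change (x axis) from Dnmt3b+/+ of each tested gene of the licensing genes and the 11 other lists, in embryos labelled Dnmt3b-/- (left) and Dnmt3bCI/CI embryos (right), filled where the adjusted p was under 0.05, with the median of each list as a line. On the left the medians are above 0 for all lists except the inhibitors (-0.04), and on the right no gene is filled.

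Of the inhibitors of cyclin-dependent kinases, Cdkn1a rose and Cdkn2c fell. Of 7 genes 6 were tested, and in embryos labelled Dnmt3b-/- 1 rose and 1 fell, with a median of -0.04, beside 9.41% of all tested genes higher and 16.4% lower. Cdkn1a, which encodes p21, an inhibitor of Cdk2 that also binds the Pcna clamp, was at 7.41, 8.20 and 9.26 FPKM in Dnmt3b+/+ embryos, 19.5, 16.6 and 15.2 FPKM in embryos labelled Dnmt3b-/-, and 9.24, 11.4 and 9.86 FPKM in Dnmt3bCI/CI embryos. The embryos labelled Dnmt3b-/- lay above all others, at 1.04 ± 0.12 SE from Dnmt3b+/+ (log2, adjusted p = 0.00117) and 0.74 from Dnmt3bCI/CI (adjusted p = 0.00367). Cdkn2c, which encodes p18, an inhibitor of Cdk4 and Cdk6, fell (3.09, 2.85 and 3.10 FPKM against 2.31, 1.91 and 1.70 FPKM, -0.60 ± 0.13 SE, adjusted p = 0.0150). Its Dnmt3bCI/CI embryos, at 2.22, 2.11 and 2.81 FPKM, overlapped with those labelled Dnmt3b-/-. They lay below all Dnmt3b+/+ embryos, a pattern that 5.65% of all tested genes had, and the difference did not pass (-0.34, adjusted p = 0.911, limma). For embryos labelled Dnmt3b-/-, the same 1 higher and 1 lower call were made without Dnmt3b+/+ embryo 2.

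The remaining inhibitors were not called. Cdkn1b, for p27, was nearly level at 10.2 to 10.9 FPKM in embryos labelled Dnmt3b-/- and 10.8 to 11.01 FPKM in Dnmt3b+/+ embryos (adjusted p = 0.448). Cdkn1c, for p57, was at 272.1, 349.4 and 365.1 FPKM in Dnmt3b+/+ embryos and 403.6, 260.0 and 212.3 FPKM in embryos labelled Dnmt3b-/- (-0.21 ± 0.23 SE, adjusted p = 0.525). Cdkn2d (-0.02, adjusted p = 0.885) and the low Cdkn2b (0.13, adjusted p = 0.760) did not pass, and Cdkn2a was at or below 0.0444 FPKM in all embryos and was not tested. The order of embryos within the group labelled Dnmt3b-/- was not the same for p21 and the licensing genes. Embryo 1, the lowest of the 3 for all 10 licensing genes, had the highest Cdkn1a and the highest Cdkn1c.

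Other cell types differed between these embryos, and their part in the licensing result was not tested. The counts of markers below stand beside 9.41% of all tested genes higher and 16.4% lower, and beside 1160 higher and 2309 lower of 19397 without Dnmt3b+/+ embryo 2. In embryos labelled Dnmt3b-/- all 6 cartilage markers were lower than in Dnmt3b+/+ (summed 79.5 to 126.4 FPKM against 140.2 to 209.9 FPKM), led by Matn1 (-3.92), Matn4 (-4.25) and Acan (-3.31). Of 6 muscle markers 4 were lower (summed 82.9 to 108.4 FPKM against 111.9 to 215.5 FPKM), with Chrna1 at -1.79, Acta1 at -1.17 and Myh3 at -1.74. Without Dnmt3b+/+ embryo 2 these counts were 4 for cartilage and 3 for muscle, and the counts of the macrophage, erythroid, neuron, neural progenitor and endothelial lists were as with all embryos. Of 6 macrophage markers 2, Adgre1 and Cx3cr1, were lower (4 without embryo 1 labelled Dnmt3b-/-, where 4544 of all 19397 genes were lower), at summed levels of 14.5 to 20.2 FPKM against 18.5 to 21.01 FPKM. The embryonic globin genes Hbb-bh1 (3.01) and Hba-x (1.79) were higher, the other 6 of 8 erythroid markers did not pass, and the erythroid sum was 2218 to 6950 FPKM against 2247 to 2868 FPKM.

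None of the 6 markers of neurons, which have left the cell cycle, passed the test, with summed levels of 208.8, 402.2 and 260.0 FPKM in Dnmt3b+/+ embryos, 349.2, 186.5 and 166.6 FPKM in embryos labelled Dnmt3b-/-, and 259.6, 299.8 and 298.6 FPKM in Dnmt3bCI/CI embryos. Without embryo 1 labelled Dnmt3b-/-, which has the highest neuronal sum of its group, 4 of the 6 were lower than in Dnmt3b+/+, as were 4544 of the 19397 genes tested. Within each of the 3 groups the embryo with the most neuronal RNA was the one with the least licensing RNA. In Dnmt3bCI/CI embryos this rests on nearly equal neuronal sums, 299.8 and 298.6 FPKM, and a link was not tested. Of 6 neural progenitor markers 1, Nes, was higher (0.51 ± 0.15 SE, adjusted p = 0.0385), beside 9.41% of all tested genes. The list summed to 133.9 to 204.1 FPKM in embryos labelled Dnmt3b-/- against 125.9 to 178.0 FPKM in Dnmt3b+/+ embryos. The hepatocyte markers summed to 35.8 FPKM in Dnmt3b+/+ embryo 2, nearly all of it Ttr, which the brain also makes, and to 45.1 to 93.0 FPKM in embryos labelled Dnmt3b-/- against 126.9 and 230.2 FPKM in the other Dnmt3b+/+ embryos. Of these 6 markers, 1 (Ttr) was lower with all embryos, beside 16.4% of all tested genes. Without Dnmt3b+/+ embryo 2 it was 3, beside 2309 of 19397 genes. None of the 5 endothelial markers passed against Dnmt3b+/+.

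The same lists differed between the 2 mutant genotypes, beside 9.7% of all tested genes higher and 18.2% lower in embryos labelled Dnmt3b-/- than in Dnmt3bCI/CI embryos. Lower were 5 of 6 cartilage markers (summed 79.5 to 126.4 FPKM against 200.9 to 213.0 FPKM), 5 of 6 muscle markers (82.9 to 108.4 FPKM against 198.6 to 244.6 FPKM), 4 of 6 macrophage markers (14.5 to 20.2 FPKM against 21.95 to 25.1 FPKM) and 2 of 5 endothelial markers, Pecam1 (-0.30) and Cdh5 (-0.29). Of the hepatocyte markers Ttr was lower (-1.47). Higher were 3 of 6 neural progenitor markers, Sox1 (1.51), Sox2 (0.95) and Nes (0.56), and the globin genes Hbb-bh1 (3.37) and Hba-x (2.07). Against Dnmt3b+/+, Sox1 was at 0.44 in embryos labelled Dnmt3b-/- and -1.08 in Dnmt3bCI/CI embryos, and Sox2 at 0.36 and -0.59, none of which passed. Fabp7, a progenitor marker that was not called, had an estimate of -0.43 between the mutant genotypes. None of the 6 neuron markers passed between the mutant genotypes. Without embryo 1 labelled Dnmt3b-/-, 4 of them were lower than in Dnmt3bCI/CI, as were 4816 of the 19397 genes tested. The part of these differences in that of the licensing genes was not tested either.

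The genes whose pattern over the 9 embryos was most like the ring were looked for among 12775 genes with a mean of at least 1 FPKM. Pearson's r with the mean log2 level of Mcm2 to Mcm7 was 0.997 for Hmgb1, 0.996 for Gmnn and Rrm2, and 0.995 for Hn1l. Hmgb1 encodes an abundant chromatin protein. Among the licensing genes outside the ring r was 0.987 for Pcna, 0.984 for Cdc6, 0.958 for Cdt1 and 0.879 for Ccne1. These values describe 9 points that share genotype and library, so they carry no test. Hmgb1 was at 42.6, 33.2 and 39.1 FPKM in Dnmt3b+/+ embryos, 47.0, 56.5 and 57.7 FPKM in embryos labelled Dnmt3b-/- and 38.1, 35.2 and 38.1 FPKM in Dnmt3bCI/CI embryos. As for the ring, embryo 2 was lowest in the wild type and embryo 1 lowest in the group labelled Dnmt3b-/-.

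The share of calls that were higher depended on the scaling of all genes. It was 36.5% of the calls between embryos labelled Dnmt3b-/- and Dnmt3b+/+ as deposited, and 52.2% after quantile normalization, where 6 of the 10 licensing genes passed with a median of 0.47 and 2236 of 19397 tested genes were higher. Between the 2 mutant genotypes it moved from 34.8% to 55.5%, with 7 of the 10 licensing genes past the test in both, beside 9.7% and 14.6% of all tested genes.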

How the data were processed

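Total RNA of 9 whole E11.5 embryos was sequenced, and 9 further samples of the series, which hold reduced representation bisulfite libraries, were not used here. The authors trimmed reads, aligned them with STAR to GRCm38 (mm10), kept a mapping quality of at least 50 and quantified genes in SeqMonk. The deposited values are FPKM per gene and embryo, and the version of STAR, the annotation release and the strandedness are not given in the sources used here. A gene without reads holds a value worth 0.9 reads. With GENCODE M21 exon lengths, found for 99.7% of the genes, whole reads and library totals were recovered: 90.5% of values below 2000 reads were within 0.05 of a whole number, as were all values of the 10 licensing genes. Totals were 38451729 to 49808777 reads. Whether a read pair counts once is not given.

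Genes at 0.1 FPKM or more in at least 3 embryos entered 1 limma fit of all 9 embryos (limma 3.58.1, R 4.3.3, variance trend on) on log2(FPKM + 0.1), with Benjamini-Hochberg adjustment over 19397 genes. A gene was called at an adjusted p under 0.05, and 2-fold was counted apart. Fold changes are on the log2(FPKM + 0.1) scale and understate those of low genes. SE and 95% intervals are those of limma. The script was tested on simulated data. The authors named DESeq2, which needs counts. The alternatives were pseudocounts of 0.01 and 1, no filter, a filter at 1 FPKM, median-of-ratios scaling, quantile normalization, fits on 2 groups, no variance trend, the replicate number as a block, leaving out each embryo, and, added after seeing the data, voom on the recovered reads. The members and lists were chosen with earlier results of these data known. Beside the 10 licensing genes and all inhibitors, the text names the 3 genes of each list with the smallest p between embryos labelled Dnmt3b-/- and Dnmt3b+/+, genes of a list past 2-fold, and the 5 genes most like the ring, of which 1 is not reported here. Genes named outside this rule were named after their values were seen. Promoter windows are from RefSeq for GRCm38.p6.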

Additional observations from a re-analysis of the deposited data

How the results depend on the processing

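The estimates of the 10 licensing genes were above 0 for embryos labelled Dnmt3b-/- against Dnmt3b+/+ under all 19 alternatives, with medians between 0.43 and 0.64 on the log2 scale, while the number past the threshold changed, and Mcm6 and Cdt1 each passed under 1. Leaving out 1 embryo gave 2 to 10 of the 10 genes (8 with all embryos), 15 to 64 pathway genes (51), and over all genes 845 to 2359 higher and 1593 to 4544 lower. Between the mutant genotypes it gave 29 to 70 pathway genes higher (57 with all embryos) and 1 to 2 lower (1), and over all genes 1062 to 2427 higher and 1965 to 4816 lower. For Dnmt3bCI/CI against Dnmt3b+/+ it gave 1 to 5 genes lower in all. Fits on 2 groups gave 4 licensing and 24 pathway genes, and 1011 higher and 1729 lower over all genes, for embryos labelled Dnmt3b-/- against Dnmt3b+/+, and 7 licensing and 60 pathway genes, and 1779 higher and 3515 lower, between the mutant genotypes. Same-numbered embryos of Dnmt3b+/+ and the group labelled Dnmt3b-/- did not deviate together (mean r = -0.21, above 0.1 in 0 of 3 pairs). The mean r was 0.0459 between Dnmt3bCI/CI and Dnmt3b+/+ (above 0.1 in 1 of 3 pairs) and -0.0956 between the mutant genotypes (0 of 3). With 3 pairs in each comparison, this cannot show whether embryos with the same number share a litter or a batch. The main fit does not pair them. With the replicate block 5 licensing and 31 pathway genes passed against Dnmt3b+/+, 1075 genes were higher and 1954 lower, 1212 were higher between the mutant genotypes, and 1 gene was lower in Dnmt3bCI/CI. Quantile normalization gave 2044 genes lower against Dnmt3b+/+, and 2840 higher, 2281 lower and 0 pathway genes lower between the mutant genotypes. Genes lower in Dnmt3bCI/CI were 3 in the main fit, 7 with no filter, 5 with median-of-ratios scaling, quantile normalization or voom, and 1 without the variance trend. With voom on recovered reads 8 licensing genes passed, with 1907 genes higher and 3193 lower in all. The cause of these moves was not tested.

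Differences of the licensing genes between Dnmt3bCI/CI and Dnmt3b+/+ lay near 0, and for 9 of them the sign turned under some alternative without passing the test. Mcm4 became -0.01 and Pcna -0.00 with median-of-ratios scaling, and both -0.01 with quantile normalization. On leaving out 1 embryo the ranges were -0.14 to 0.06 for Mcm2, -0.16 to 0.05 for Mcm3, -0.09 to 0.08 for Mcm4, -0.13 to 0.13 for Mcm5, -0.14 to 0.08 for Mcm6, -0.15 to 0.00 for Mcm7, -0.17 to 0.18 for Cdc6, -0.22 to 0.05 for Cdt1 and -0.10 to 0.14 for Pcna. In embryos labelled Dnmt3b-/- against Dnmt3b+/+ they were -1.08 to 3.29 for Afp, -1.66 to 2.08 for Apoa1 (-0.12 with a pseudocount of 1), -0.12 to 0.29 for Cdkn2b and -0.11 to 0.08 for Cdkn2d (0.01 with median-of-ratios scaling), and Cdkn2b ran from -0.33 to 0.19 for Dnmt3bCI/CI against Dnmt3b+/+ and from -0.06 to 0.45 between the mutant genotypes. With 3 embryos a group, differences of a size within the printed intervals could not be resolved.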
